A study of Mus musculus with 12 samples.

Results

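Chemokines are small secreted or membrane-bound proteins that direct the migration of leukocytes and, in the brain, of microglia. Transcript levels of 10 chemokine ligands, Ccl2, Ccl3, Ccl4, Ccl5, Ccl6, Ccl12, Cxcl16, Cxcl14, Cxcl12 and Cx3cl1, were measured in mouse models of brain ageing and of Alzheimer's disease. The ligands were chosen by name, with earlier results of these data known. A probe belonged to a ligand where the transcript accession given for it on the array matched that gene in the RefSeq table, which gave 11 of 39429 probes and 10 of 20882 genes with a symbol. Cxcl12 had 2 probes and each of the other ligands had 1.

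The 12 arrays fell into 3 sets, with 1 array for each model and the RNA of 3 animals pooled on each. The first set was prefrontal cortex of C57BL/6 mice at 1.5, 4, 17 and 22 months. The second was hippocampus of transgenic mice, C57BL/6 in the labels with C57BL/6N given by the methods as a background strain, namely an NCSTN model carrying the mutated human nicastrin gene at 10 months, a MAPT model overexpressing wild-type human tau at 12 months, and 5xFAD mice at 6 months, which carry human transgenes of familial Alzheimer's disease, mutant APP among them. The third was hippocampus of male ICR mice treated at 7 weeks with amyloid-β peptide (Ab in the labels, 5 or 10 µM) or with streptozotocin at doses of 2.5 and 3 mg/kg, both given into the cerebral ventricle 14 days before dissection, or with scopolamine (1 mg/kg, intraperitoneal) 30 min before dissection. The promoters of the NCSTN and MAPT transgenes were not given in the sources used here, and non-transgenic or vehicle-injected controls were not analysed here. Since the sets differ from one another in strain, in tissue or in both, the ligands were compared only within a set. For the transgenic mice an effect of the model and of its age cannot be told apart. There were no replicate arrays, so no difference below has a replicate check and none was tested. Every ratio describes these pools of RNA.

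Values are log2 of the scanner software's processed signal after quantile normalization over the 12 arrays. A spot was counted as measured where the software flagged it as well above background, which held for 63.5 to 75.9% of the probes on an array, and no spot was saturated. Technical error was read from probes printed at least 8 times on each array. Their median SD over spots was 0.110 to 0.232 log2 units at levels of 4 to 6 and 0.0626 to 0.0859 at levels of 6 to 8, and stayed below that at higher levels. The methods describe male animals. Xist, the RNA that silences one X chromosome in females, was well above background at 9.19 to 9.59 on the 3 transgenic arrays and on none of the other 9, and the Y-linked gene Ddx3y showed the reverse. All 3 transgenic arrays share this pattern, which goes against the stated sex, so every comparison among them is between arrays with the same sex-linked signal.

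CC chemokines such as Ccl2, Ccl3 and Ccl4 are produced by activated microglia, macrophages and astrocytes and attract monocytes and T cells. Cx3cl1 is made by neurons and signals to the microglial receptor Cx3cr1, and Cxcl12 acts on Cxcr4 and Ackr3 in neural development and at the vessel wall. Of the 10 genes, 7 lie on mouse chromosome 11, and among the coding genes of RefSeq's GRCm38.p6 table Ccl6, Ccl3 and Ccl4 directly follow one another there. Ccl2 neighbours Ccl7, Ccl12 lies between Ccl11 and Ccl8, and Ccl5 neighbours Ccl9. Cxcl16 lies elsewhere on the same chromosome.

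RefSeq's promoter table of the same build held 6 of the 10 genes, Ccl3, Ccl6, Ccl12, Cxcl14, Cxcl12 and Cx3cl1. The 200 bases before the annotated start are shown for Ccl3, Ccl6 and Ccl12, since these are the ligands among the 6 that were at least 2-fold higher on the 5xFAD array, as described below. They lie at chr11:83649379-83649578 on the minus strand, chr11:83593088-83593287 on the minus strand and chr11:82101645-82101844 on the plus strand. Capitals mark matches, on either strand, to the PU.1 core GAGGAA or the TATA box TATAAA.
Ccl3: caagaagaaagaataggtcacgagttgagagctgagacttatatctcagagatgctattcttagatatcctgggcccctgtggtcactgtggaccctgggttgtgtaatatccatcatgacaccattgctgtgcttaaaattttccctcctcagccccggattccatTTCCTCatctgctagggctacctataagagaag
Ccl6: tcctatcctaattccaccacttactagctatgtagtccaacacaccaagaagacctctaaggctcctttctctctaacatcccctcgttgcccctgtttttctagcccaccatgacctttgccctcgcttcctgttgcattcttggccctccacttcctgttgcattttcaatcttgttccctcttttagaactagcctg
Ccl12: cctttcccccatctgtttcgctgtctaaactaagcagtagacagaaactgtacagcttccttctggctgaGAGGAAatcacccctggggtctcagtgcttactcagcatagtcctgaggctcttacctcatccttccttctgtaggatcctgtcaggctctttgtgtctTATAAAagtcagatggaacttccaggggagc
The PU.1 core, the short sequence bound by a transcription factor of myeloid cells, was matched before Ccl3 (bases 33 to 28 before the start), Ccl12 (bases 130 to 125) and Cx3cl1, that is 3 of 6 ligands, against 19% of the 32851 promoters in the table. TATAAA was matched before Ccl12, at bases 31 to 26, and before Cx3cl1, at bases 6 to 1, against 9.96% of all promoters. The AP-1 letters TGANTCA, held by 5.48% of promoters, and the C/EBP letters TTGCNNAA, held by 7.47%, were not in these windows. No 2 of these matches overlapped, and a match of letters is a description and not a bound site.

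Most of the inflammatory ligands had far more signal on the 5xFAD array than on the other transgenic arrays. Against the mean of the NCSTN and MAPT arrays, 6 of 10 ligands (Ccl3, Ccl4, Ccl6, Ccl12, Cxcl16 and Ccl2) were at least 2-fold higher, where 4.76% of all 20882 genes were. In the other direction 0 ligands were 2-fold lower, where 803 of the 20882 genes were. Cxcl12 was counted there by the mean over its probes, and its brighter probe alone was 2.52-fold lower. After normexp background correction all 6 log2 ratios were smaller, at 4.34 for Ccl3, 4.15 for Ccl4, 3.61 for Ccl6, 1.61 for Ccl12, 1.26 for Cxcl16 and 0.84 for Ccl2, which no longer passed 2-fold. The median log2 ratio was 2.08 over the 10 ligands and -0.05 over all genes. Between the NCSTN and MAPT arrays, 1 ligand (Ccl4) was at least 2-fold lower, against 0.737% of genes, and 0 were higher. Old cortex (17 and 22 months) against young (1.5 and 4 months) gave 0 ligands past 2-fold in either direction, against 0.737% of genes. In whole tissue, more cells of a type and more RNA per cell cannot be told apart.

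Among the injected ICR mice, Aβ against streptozotocin gave 2 ligands at least 2-fold higher (Ccl2 and Ccl12, background 2.72%) and 1 lower (Ccl3, background 0.46%). The higher against the lower streptozotocin dose gave 4 higher (Ccl4, Ccl5, Ccl12 and Cxcl16, background 1.4%) and 1 lower (Ccl3, background 0.69%). Scopolamine against the mean of the 4 arrays of the other injections gave 0 of 10, where 2.28% of genes passed 2-fold, and 10 against 5 µM Aβ gave 0 of 10, where 2.23% did. The mean set against scopolamine joins unlike arrays, so differences from single treatments can cancel in it. Ccl2 read 4.93 after scopolamine, 6.18 and 6.64 after Aβ, and 4.17 and 4.43 (not well above background) after streptozotocin. After normexp background correction, Ccl12 alone passed 2-fold for Aβ against streptozotocin, at a log2 ratio of 1.06, with Ccl2 at 0.75 and Ccl3 at -0.76. Between the streptozotocin doses Ccl5 alone passed it then, at 1.14, with Ccl4 at 0.70, Ccl12 at 0.45, Cxcl16 at 0.48 and Ccl3 at -0.78. In the deposited matrix Aβ against streptozotocin gave 0.84 for Ccl2, 1.10 for Ccl12 and -1.32 for Ccl3, and between the doses Ccl5 (1.27) and Ccl3 (-1.24) were the ligands past 2-fold. Without the 2.5 mg/kg streptozotocin array, Ccl4 (-1.64) and Ccl5 (-1.47) were also lower after Aβ, and without the 3 mg/kg array Cxcl16 (1.26) was also higher. The comparisons with scopolamine and between doses reuse arrays of the Aβ and streptozotocin comparison. Cx3cl1, Cxcl14 and the Cxcl12 mean over probes stayed within 2-fold in all 7 comparisons. Over the arrays of a set, 3 ligands (Ccl2, Ccl3 and Ccl5) spanned at least 2-fold in cortex, where 6.54% of genes did, 6 spanned it on the transgenic arrays (13.4% of genes) and 6 on the ICR arrays (11.5% of genes), with dim values raised to the lowest measured signal of their array.

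**Figure D1:**
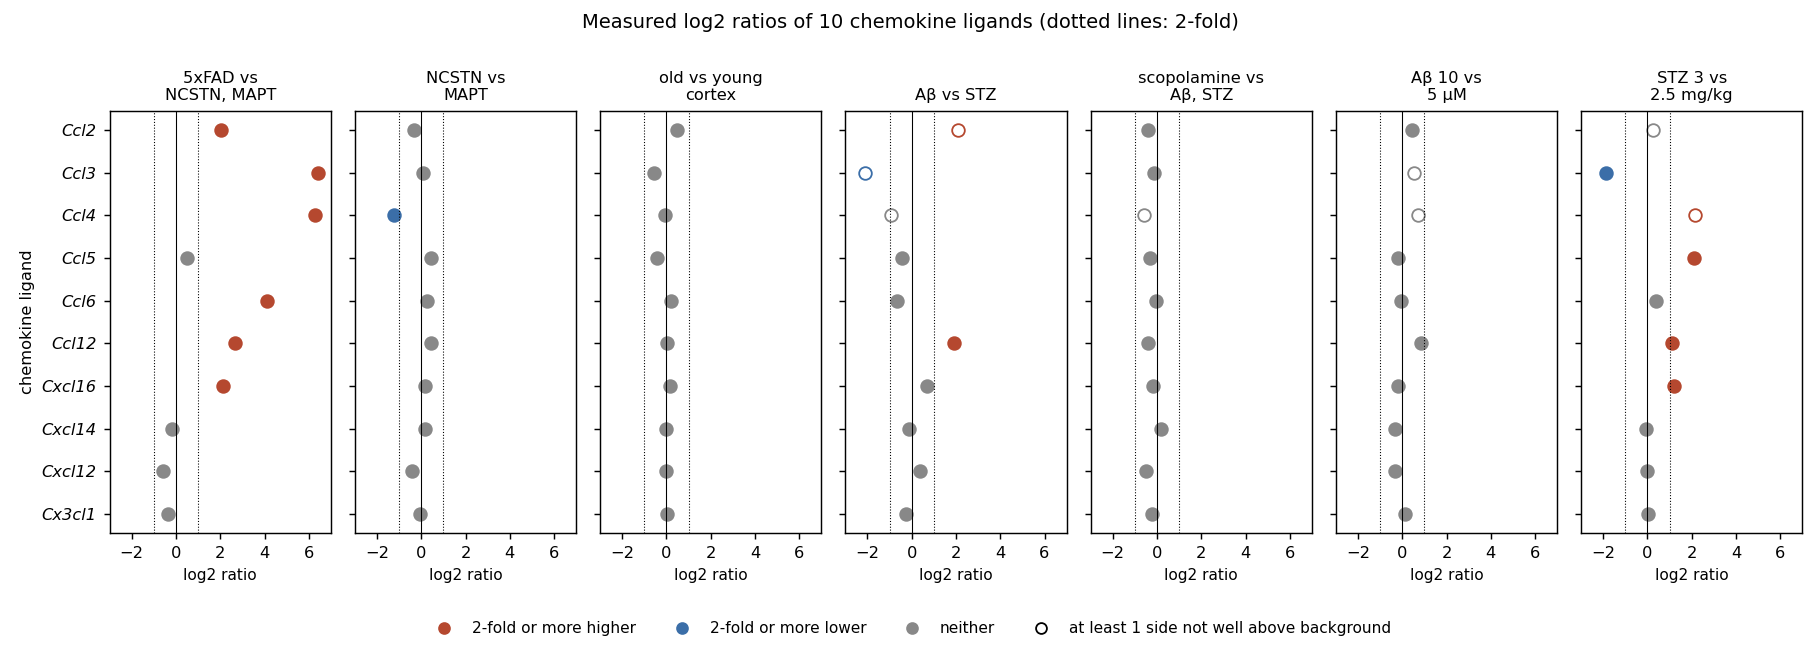
Measured log2 ratios (x axis) of the 10 ligands (rows) in the 7 comparisons (panels), with dotted lines at 2-fold and open points where at least 1 side was not well above background. On the 5xFAD array 6 ligands lie to the right of the 2-fold line, with Ccl3 at 6.41 and Ccl4 at 6.30, while in old against young cortex all 10 lie between the lines.

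Ccl3 and Ccl4, which attract monocytes and T cells, had the widest range over the 12 arrays. In the transgenic hippocampus Ccl3 read 4.77 on the NCSTN array, 4.69 on the MAPT array and 11.14 on the 5xFAD array. The 5xFAD value was 6.41 log2 units, or 84.8-fold, above the mean of the other arrays, which differed from each other by 0.08, and 4.34 log2 units after normexp. In cortex Ccl3 read 4.84, 5.62, 4.29 and 5.05 from 1.5 to 22 months, and the young and old arrays overlapped. Its 1.33 log2 range over the 4 ages followed no order of age. After Aβ injection Ccl3 read 4.03 at 5 µM and 4.55 at 10 µM, neither well above background, while streptozotocin gave 7.32 at the lower and 5.46 at the higher dose and scopolamine 5.19. The streptozotocin arrays did not overlap the Aβ arrays, and their mean was at least 4.22-fold higher. The Aβ minus streptozotocin log2 ratio was -3.01 without the 3 mg/kg array and -1.15 without the 2.5 mg/kg array. After normexp it was -0.76, within 2-fold. The highest ICR signal of Ccl3 was at the lower streptozotocin dose, 3.62-fold above the higher dose. After normexp the log2 ratio of the higher against the lower dose was -0.78.

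Ccl4 read 3.99 on the NCSTN array, 5.20 on the MAPT array and 10.89 on the 5xFAD array, a difference of 6.30 log2 units or 78.8-fold between 5xFAD and the mean of the others. This difference was 5.69 without the NCSTN array, 6.90 without the MAPT array and 4.15 after normexp. The MAPT value was 2.31-fold above the NCSTN value, at levels where spots of 1 probe vary most, and this difference shrank to -0.24 log2 units (NCSTN minus MAPT) after normexp background correction and to -0.60 where all values were raised to a common floor. Cortex gave 4.74, 5.01, 4.68 and 4.91 with age, a range of 0.33. In the ICR mice Ccl4 was well above background on the 3 mg/kg streptozotocin array alone, at 5.90, and read 3.51 and 4.20 after 5 and 10 µM Aβ, 3.74 after 2.5 mg/kg streptozotocin and 3.76 after scopolamine. The 3 mg/kg value was at least 2.5-fold above that at 2.5 mg/kg. Ccl3 and Ccl4, which ran together on the 5xFAD array, went opposite ways between these single streptozotocin arrays. After normexp both differences were within 2-fold, at log2 ratios (3 against 2.5 mg/kg) of -0.78 for Ccl3 and 0.70 for Ccl4.

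**Figure D2:**
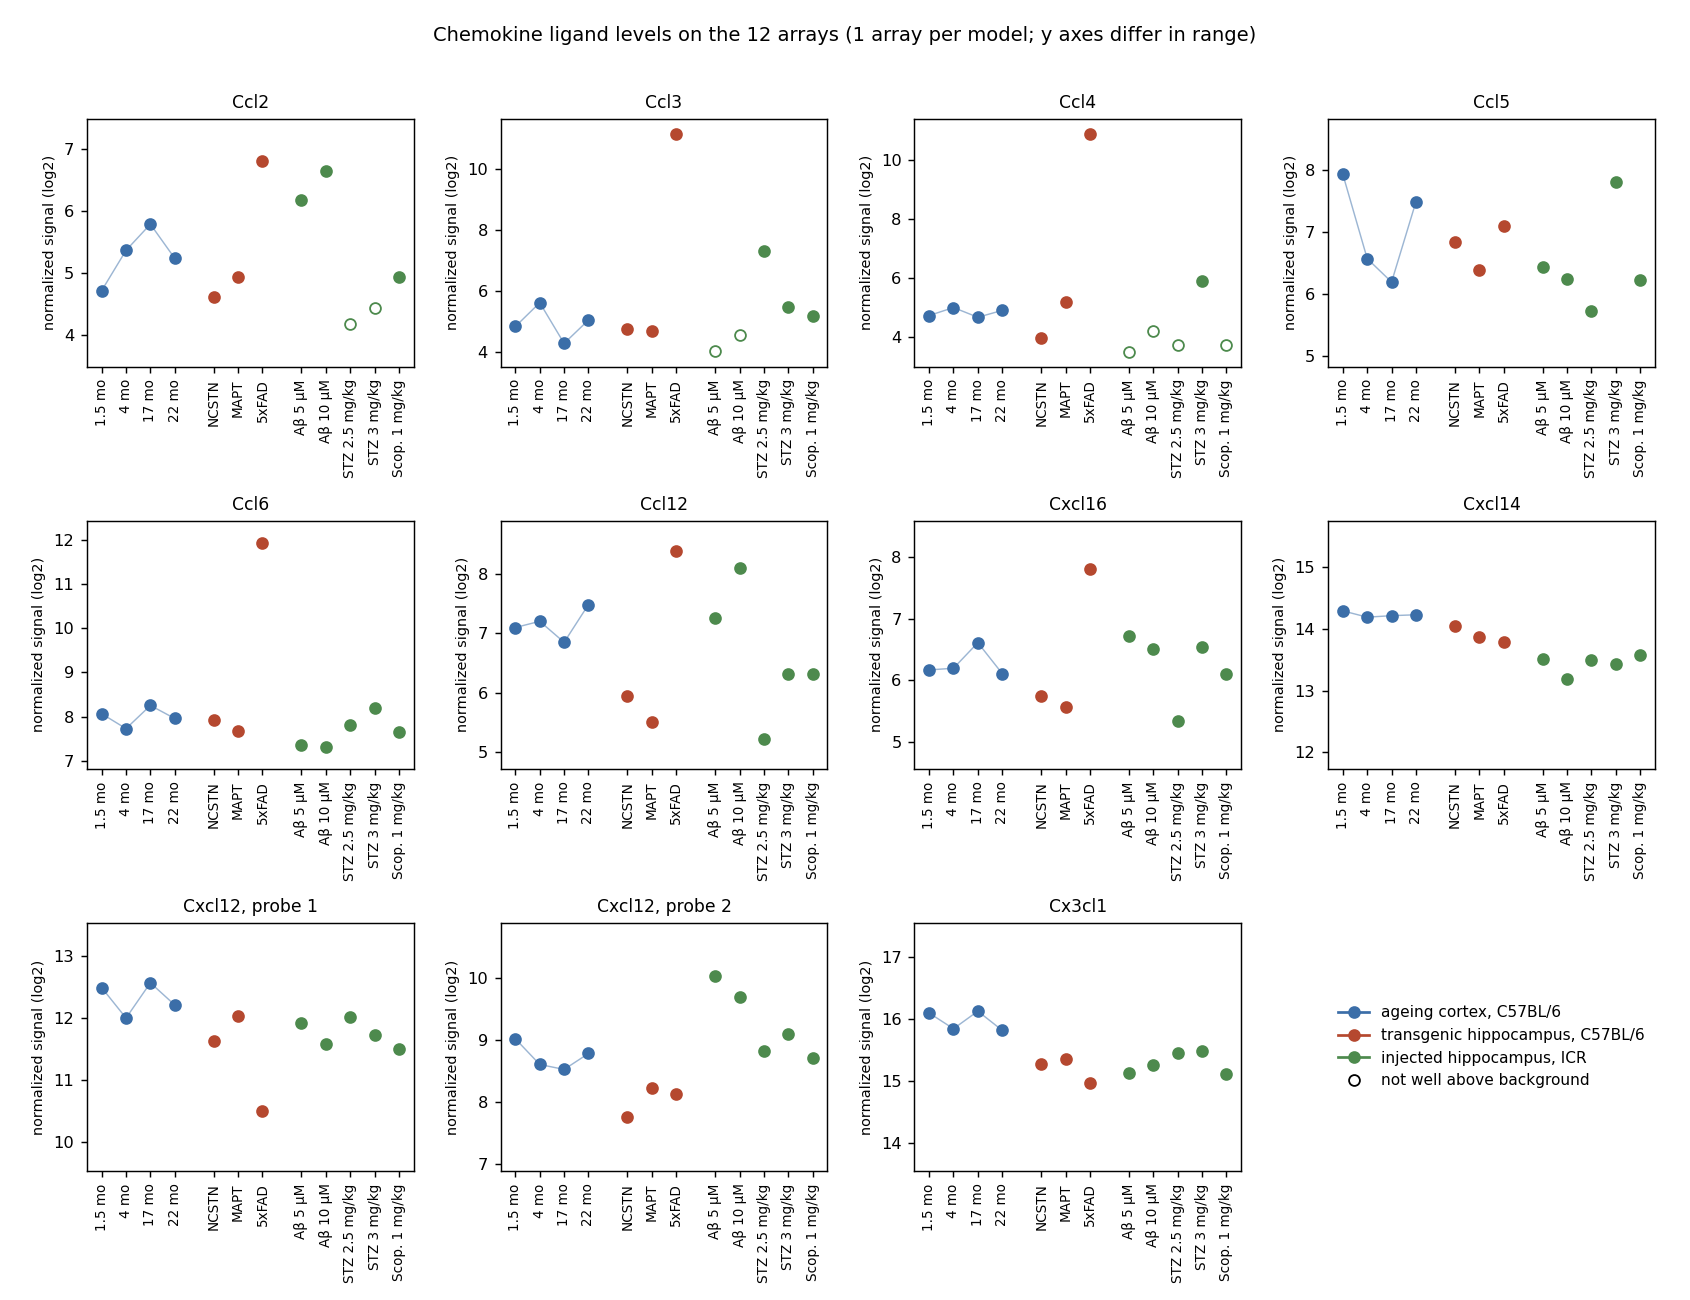
Normalized signal (y axis, log2, ranges differ between panels) of the 11 probes on the 12 arrays (x axis), coloured by set, with open points where a probe was not well above background and a line joining the 4 ages of cortex. Ccl3, Ccl4, Ccl6, Ccl12, Cxcl16 and Ccl2 have their highest value on the 5xFAD array, while Cx3cl1 and Cxcl14 vary little within a set.

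Ccl5, which binds Ccr1 among other receptors and is typical of T cells, did not follow Ccl3 and Ccl4. It read 6.84, 6.39 and 7.09 on the NCSTN, MAPT and 5xFAD arrays, and the 5xFAD value was 1.39-fold above the mean of the others. In cortex it read 7.93 at 1.5 months, 6.57 at 4, 6.20 at 17 and 7.49 at 22, the widest range of the 10 ligands there (1.74), with the highest values at the youngest and oldest ages. Old against young cortex came to a log2 ratio of -0.41 with all 4 arrays, but to -1.06 without the 22-month array and to -1.09 without the 4-month array. In the ICR mice Ccl5 read 6.44 and 6.25 after Aβ, 6.23 after scopolamine, and 5.73 and 7.81 after the lower and higher streptozotocin dose. The 3 mg/kg array stood above the other 4, by 4.24-fold over the lower dose. Of 7 T cell markers on the array, 2 were well above background on each streptozotocin array. The summed signal of all 7 was 568 and 578 there, and the part of T cells in the Ccl5 difference was not tested.

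Ccl6, a ligand of Ccr1 made by myeloid cells, read 7.93 on the NCSTN array, 7.68 on the MAPT array and 11.92 on the 5xFAD array, 17.4-fold higher on the last. Everywhere else it lay in a narrow band. The 4 cortex arrays gave 8.07, 7.73, 8.25 and 7.96 and the ICR arrays gave 7.37 and 7.32 after Aβ, 7.82 and 8.20 after streptozotocin and 7.65 after scopolamine. The Aβ arrays lay below the streptozotocin arrays without overlap, by 1.58-fold.

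Ccl2 and Ccl12, both ligands of the monocyte receptor Ccr2, were the ligands higher after Aβ than after streptozotocin. The Ccl2 probe was printed 10 times on each array, so its technical spread could be read directly. After Aβ it read 6.18 ± 0.19 (SD over 10 spots) at 5 µM and 6.64 ± 0.12 (SD over 10 spots) at 10 µM. Streptozotocin gave 4.17 ± 0.45 (10 spots) for the lower dose and 4.43 ± 0.42 (9 spots) for the higher, neither well above background, and scopolamine gave 4.93 ± 0.27 (10 spots). No spot of the Aβ arrays overlapped the spots of the streptozotocin or scopolamine arrays, and the mean of the Aβ arrays was at least 3.57-fold above that of the streptozotocin arrays. This bound holds for the main processing. After normexp the log2 ratio was 0.75, and in the deposited matrix it was below 2-fold as well. On the transgenic arrays Ccl2 read 4.61 ± 0.10, 4.94 ± 0.12 and 6.80 ± 0.08 on NCSTN, MAPT and 5xFAD (SD over 10, 9 and 10 spots), 4.07-fold higher on the last, though 0.84 log2 units higher after normexp. Spots of 1 array share the labelled RNA, so these SDs hold no difference between animals. In cortex Ccl2 read 4.71, 5.36, 5.78 and 5.23 from 1.5 to 22 months, and young and old overlapped.

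**Figure D3:**
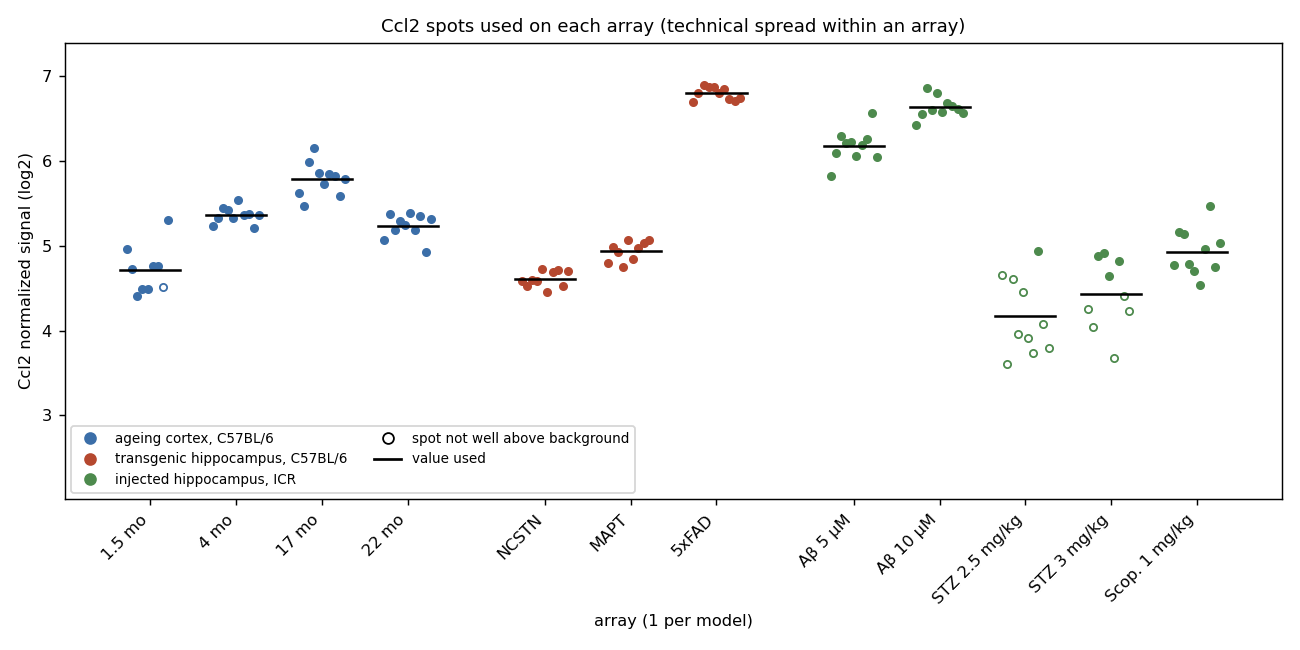
Ccl2 signal (y axis, log2) of each spot used on the 12 arrays (x axis), with open points for spots not well above background and a black line at the value used. The spots of the 5xFAD array (6.69 to 6.90) and of the 10 µM Aβ array (6.42 to 6.86) lie above every spot of the other cortex, transgenic and ICR arrays except those of the 5 µM Aβ array (5.83 to 6.56).

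Ccl12 read 5.95 on the NCSTN array, 5.51 on the MAPT array and 8.39 on the 5xFAD array, a 6.33-fold difference between 5xFAD and the others, or 2.66 log2 units against 1.61 after normexp. After Aβ it read 7.25 at 5 µM and 8.09 at 10 µM, against 5.22 and 6.32 after 2.5 and 3 mg/kg streptozotocin and 6.31 after scopolamine. The Aβ arrays lay above all other ICR arrays and 3.74-fold above the streptozotocin mean, a log2 ratio of 1.90 against 1.06 after normexp and 2.45 without the 3 mg/kg array. The higher Aβ dose was 1.79-fold above the lower and the higher streptozotocin dose 2.14-fold above the lower. The streptozotocin dose difference was 0.44 log2 units in the deposited matrix and was also below 2-fold after normexp. Cortex gave 7.10, 7.20, 6.85 and 7.48, with a log2 ratio of 0.02 between old and young.

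Border-tissue and some neutrophil markers were, like Ccl2 and Ccl12, higher on the Aβ than on the streptozotocin arrays of the ICR mice. All 6 choroid plexus markers were at least 2-fold higher on the Aβ than on the streptozotocin arrays, with a median log2 ratio of 5.29. Their summed normalized signal was 187730 and 197493 on the Aβ arrays, 3334 and 5520 on the streptozotocin arrays and 189215 on the scopolamine array, where Ccl2 and Ccl12 were not at the Aβ level. All 6 meningeal fibroblast markers were higher as well (median 2.21), with sums of 46144 and 34173 after Aβ, 5034 and 17887 after streptozotocin and 16557 after scopolamine. Of 7 border macrophage and monocyte markers, 4 were higher (median 1.09), with sums of 867 and 690, then 182 and 464, then 425 in the same order. Of 5 neutrophil markers 2 were higher (median 0.74), with sums of 929 and 526, then 496 and 542, then 671. None of the 12 microglia markers passed 2-fold (median -0.40). From 5 to 10 µM Aβ, Ccl2, Ccl12 and the choroid plexus sum rose, while the meningeal, border macrophage and neutrophil sums fell. The part of these tissues in the Ccl2 and Ccl12 differences was not tested. Between the streptozotocin doses, 5 of 6 meningeal markers (median 1.47) and 2 of 7 border macrophage markers were also higher at 3 mg/kg, beside Ccl4, Ccl5, Ccl12 and Cxcl16.

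**Figure D4:**
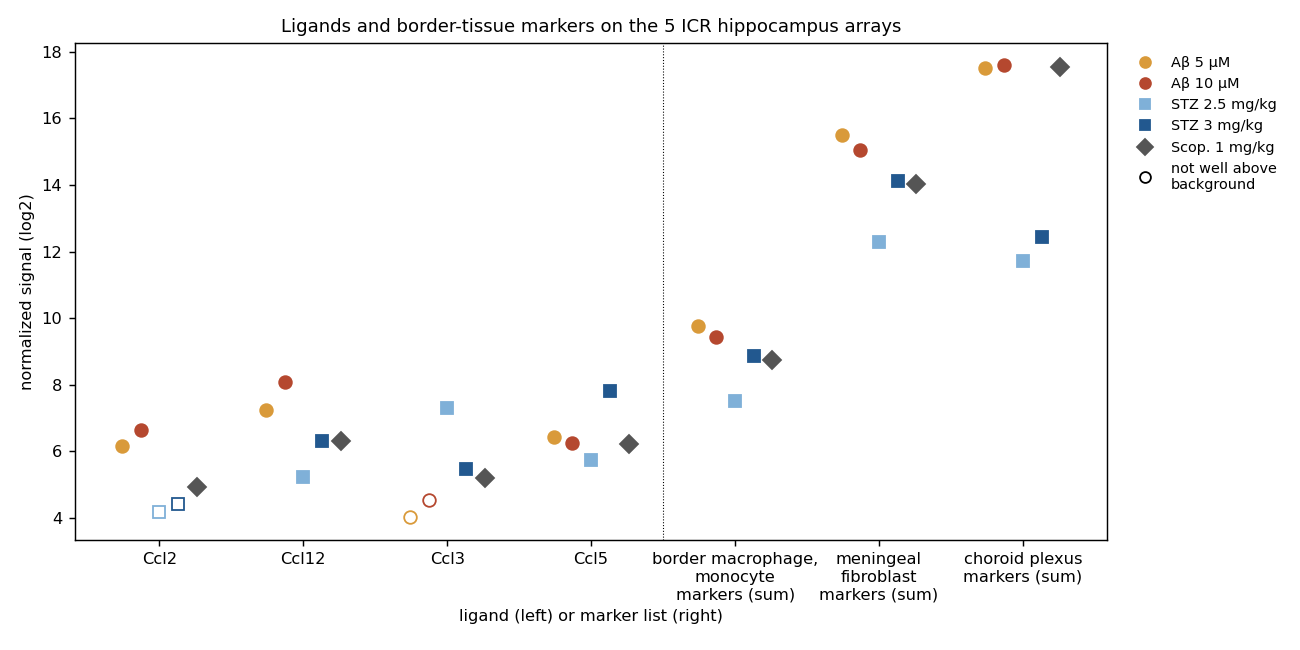
Normalized signal (y axis, log2) of Ccl2, Ccl12, Ccl3 and Ccl5 (left) and of the summed border macrophage, meningeal and choroid plexus markers (right) on the 5 ICR hippocampus arrays, with open symbols where a ligand was not well above background. Ccl2 and Ccl12 are highest on the Aβ arrays, Ccl3 and Ccl5 on 1 streptozotocin array each, and choroid plexus markers are low on both streptozotocin arrays alone.

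Cxcl16 and Cx3cl1 are the membrane-anchored ligands, released by proteases of the Adam family and, for Cx3cl1, also by cathepsin S. Cxcl16, the ligand of Cxcr6, read 5.76 on the NCSTN array, 5.58 on the MAPT array and 7.80 on the 5xFAD array, 4.38-fold higher on the last, or 2.13 log2 units against 1.26 after normexp. In cortex it read 6.17, 6.20, 6.61 and 6.11. The ICR arrays gave 6.72 and 6.51 after Aβ, 5.35 and 6.54 after 2.5 and 3 mg/kg streptozotocin and 6.10 after scopolamine. The 2.5 mg/kg array was the low one, 2.27-fold below 3 mg/kg, while the Aβ and streptozotocin arrays overlapped. This dose difference was 0.48 log2 units after normexp and was also below 2-fold in the deposited matrix. Without the 3 mg/kg array, Cxcl16 was 1.26 log2 units higher after Aβ.

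Cx3cl1 was not among the ligands higher on the 5xFAD array. It read 15.28 and 15.35 on the NCSTN and MAPT arrays and 14.97 on the 5xFAD array, 1.27-fold lower on the last. Cortex gave 16.10, 15.84, 16.13 and 15.82 at the 4 ages, with a log2 ratio of 0.00 between old and young. In the ICR mice it read 15.13 and 15.25 after Aβ, 15.46 and 15.48 after streptozotocin and 15.11 after scopolamine, and the Aβ arrays lay below the streptozotocin arrays by 1.21-fold without overlap. Both differences are about the size of the 0.31 range over the 4 cortex ages. Of 8 neuron markers, 0 passed 2-fold on the 5xFAD array, with log2 ratios from -0.58 to 0.46 and a median of -0.12.

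Cxcl14, a constitutive ligand present in hippocampal and cortical neurons, had the smallest ranges of the 10 ligands in cortex (14.28, 14.18, 14.21 and 14.22) and on the transgenic arrays (14.04, 13.86 and 13.79). The ICR arrays gave 13.50 and 13.19 after Aβ, 13.50 and 13.43 after streptozotocin and 13.58 after scopolamine.

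For Cxcl12 the result depended on the probe. The probe for transcript NM_001012477 read 11.63, 12.04 and 10.50 on the NCSTN, MAPT and 5xFAD arrays, 2.52-fold lower on 5xFAD than the mean of the others. The probe for NM_021704 read 7.75, 8.22 and 8.12 on the same arrays, with 5xFAD between the others. The first probe alone thus passes 2-fold, and the mean over both, a log2 ratio of -0.60, does not. In the ICR mice the probes parted again. NM_001012477 read 11.91 and 11.57 after Aβ, 12.02 and 11.73 after streptozotocin and 11.50 after scopolamine, with overlap. NM_021704 read 10.02 and 9.69 after Aβ, above the 8.82 and 9.09 of streptozotocin and the 8.71 of scopolamine, and was 1.87-fold higher after Aβ than after streptozotocin. In cortex the probes gave 12.49, 12.00, 12.57 and 12.21, and 9.02, 8.60, 8.52 and 8.78, with young and old overlapping for both.

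The receptors of these ligands were read on the same arrays. Cx3cr1, the fractalkine receptor of microglia, read 11.39 and 11.48 on the NCSTN and MAPT arrays and 13.36 on the 5xFAD array, a log2 ratio of 1.92, and 11.30 to 12.08 on the other 9. Cxcr6 was 1.24 log2 units higher on the 5xFAD array (6.12 against 4.85 and 4.90). Ccr1 was flagged as measured on none of the 12 arrays, and Ccr2 was measured on 2 arrays alone, 1.5-month cortex (4.52) and 5 µM Aβ (4.33). Cxcr4 read 5.82, 5.32 and 5.40 and Ackr3 9.90, 9.64 and 8.93 on NCSTN, MAPT and 5xFAD, with neither past 2-fold. Over 23 chemokine receptors, 3 were higher and 0 lower on the 5xFAD array (median 0.21), the third being Ccr6.

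Of the other chemokine ligands, 26 were on the array and 17 were well above background on some transgenic array. On the 5xFAD array 5 were at least 2-fold higher and 1 (Ccl1) lower, with a median of 0.15. The Ccl1 call rests on the MAPT array (5.43), since the NCSTN and 5xFAD arrays both read 1.75, not well above background. Cxcl10, the interferon-induced ligand of Cxcr3, had a log2 ratio of 2.55 (8.85 against 6.09 and 6.50) and Cxcl5 one of 1.90. Cxcl13, well above background on the 5xFAD array and not on the other transgenic arrays, was at least 2.47-fold higher. After Aβ against streptozotocin 4 were higher and 0 lower, among them Ccl7, the neighbour of Ccl2 and also a Ccr2 ligand, at 6.13 and 5.71 against 2.02 and 2.01 (not well above background), at least 2.55-fold. Pf4, a platelet and macrophage chemokine, was higher by 1.75. Between the streptozotocin doses 3 were higher at 3 mg/kg, led by Ccl19, a ligand of Ccr7 (10.16 against 6.96). Old against young cortex gave 2 higher, Cxcl10 at 1.06 and Ppbp at least 2.57-fold, and the 17-month array also held choroid plexus markers at a summed 50433 against 422 to 578 at the other ages.

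Among 6 genes of chemokine shedding and processing, 2 were higher on the 5xFAD array, cathepsin S (Ctss) at 15.68 against 13.19 and 13.16 and Mmp2 by a log2 ratio of 1.66, and 0 were lower. The sheddase Adam10 read 11.65, 11.71 and 11.67 on NCSTN, MAPT and 5xFAD. Of 16 NF-kB and inflammatory cytokine genes, 5 were higher and 0 lower (median 0.77), among them Tgfb1 at a log2 ratio of 1.77 and Il1b at 1.18. Il1b read 4.80, 3.59 and 5.38 on NCSTN, MAPT and 5xFAD, and its log2 ratio of NCSTN against MAPT was 1.21. Il6 (at least 2.87-fold) and Icam1 (at least 2.21-fold) were also higher, and their signal was not well above background on either other array. Il6 read 4.94 on the 5xFAD array, at levels where spots of a probe vary most. These bounds hold for the main processing and were not examined under the alternatives.

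Among the cell marker lists, those of microglia and astrocytes alone had more than 1 gene at least 2-fold higher on the 5xFAD array. Of 12 microglia markers, all measured on every array, 5 were at least 2-fold higher and 1 was lower (Siglech at -2.14), with a median of 0.96. Their summed signal was 56227 on the 5xFAD array against 27337 and 27275 on the NCSTN and MAPT arrays. Of 7 astrocyte markers 2 were higher, with sums of 41990 against 30071 and 26112. None of the 7 border macrophage and monocyte markers or the 7 T cell markers on the array passed 2-fold, with summed signals of 485 against 421 and 341, and of 554 against 655 and 1010. Of 5 neutrophil markers 2 were lower (median -0.58), with sums of 464 against 767 and 825, and of 6 endothelial markers 1 was lower (median -0.16). Over all 20882 genes, 803 were lower in this comparison. Of 6 choroid plexus markers 1 was higher (median 0.73), with sums of 107921 against 127077 and 136985, and 1 of 5 red blood cell markers was higher (median 0.07). Ccl3, Ccl4 and Ccl6 differed by log2 ratios of 6.41, 6.30 and 4.12 on the same arrays, and by 4.34, 4.15 and 3.61 after normexp. The part of these cell types in the ligand differences was not tested.

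**Figure D5:**
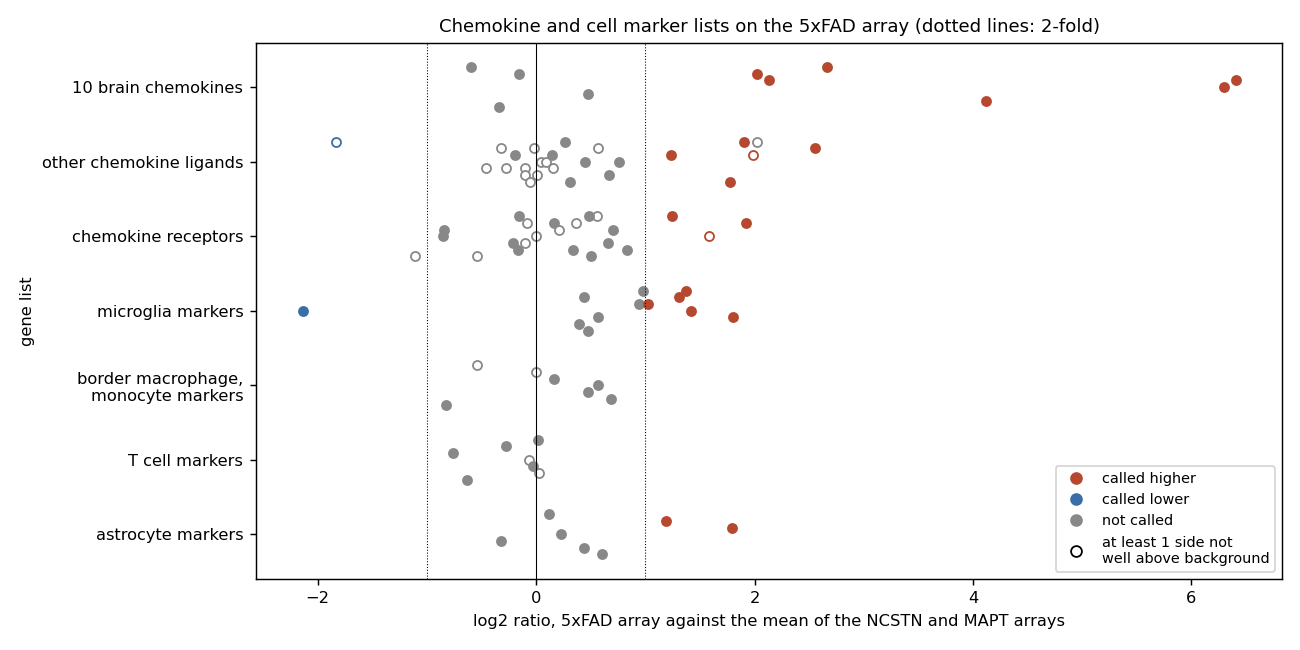
Log2 ratios (x axis) of the 5xFAD array against the mean of the NCSTN and MAPT arrays for each gene of 7 lists (rows), with dotted lines at 2-fold and open points where at least 1 side was not well above background. Ccl3, Ccl4 and Ccl6 lie beyond 4, to the right of every microglia marker.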

How the data were processed

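RNA pooled from 3 animals per model was hybridised by the authors to Agilent one-colour mouse 44K arrays, and the deposited files hold the scanner software's intensity for each spot with its flags. The authors also deposited a matrix of processed intensity, linear by its values, which per the methods was filtered at 1.4-fold over local background and quantile normalized. The scale of that matrix differs from the scanner files and was used for ratios within it alone. The version of the scanner software was not given in the sources used here.

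Here, log2 of the processed signal was averaged over the spots of a probe without outlier spots (110 to 234 per array), quantile normalized over 12 arrays in Python 3.11.15 and checked against limma 3.58.1. Probes of a gene were averaged, and 27502 of 39429 probes matched a RefSeq symbol. No filter on low values was applied. A gene was called at 2-fold. Where no array of a side was well above background, the fold is a bound, against the higher of the dim value and the lowest signal well above background on each array. Where both sides were dim, no call was made. With 1 array per model there was no test. On simulated arrays with 200 genes changed 4-fold on the 5xFAD array, 100% of these were called higher in that comparison and 0 of the unchanged genes were called (20882 genes). The changed genes were drawn from those well above background on all 12 arrays, with small noise added to a mean shared by the arrays. This checks the code and gives no rate of false calls. Between the real NCSTN and MAPT arrays 291 genes were called higher and 154 lower, where the simulation called 0. The 10 ligands, the gene lists and the comparisons were chosen with earlier results of these data known, and the statements on ranges within a set were added after the values were seen. The text names all 10 ligands, 6 of 7 receptors fixed by name (the other is not reported here), and up to 4 called genes of each other list by size of ratio. Adam10 was named after its values were seen. Alternatives were scaling to the 75th percentile, quantile normalization within each set, normexp (offset 50, on the median signals since the files hold no mean signal), the 1.4-fold filter, no bounds, the brightest probe, the deposited matrix, other fold thresholds, leaving out each array in turn and, chosen after seeing the data, 1 common floor.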

Additional observations from a re-analysis of the deposited data

How the results depend on the processing

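Of 700 recomputed ratios of single ligands, 681 kept their side of the 2-fold threshold, 13 no longer passed it, 6 newly passed it and 0 reversed. Single genes outside the 10 ligands, such as receptors, other chemokines, cytokines and cell markers, were not examined under the alternatives. The 6 ligands called on the 5xFAD array were the same under every alternative except that normexp left Ccl2 at 0.84 and called 5, and that the brightest probe and the 1.5-fold threshold added Cxcl12 as lower (7). For NCSTN against MAPT the count of 1 became 0 with normexp, with the 3-fold threshold and with 1 common floor. For Aβ against streptozotocin the count of 3 became 1 with normexp and 5 at 1.5-fold, and the deposited matrix left Ccl2 at 0.84. Between the streptozotocin doses the count of 5 became 1 with normexp, 2 with the deposited matrix and 2 at 3-fold. For 10 against 5 µM Aβ the count of 0 became 1 at 1.5-fold. For scopolamine against the mean of the Aβ and streptozotocin arrays it stayed 0 throughout. Leaving out each array in turn gave 6 to 6 on the 5xFAD comparison, 0 to 1 in cortex (1 without the 22-month or the 4-month array, Ccl5), 3 to 5 for Aβ against streptozotocin (5 without the 2.5 mg/kg array, which added Ccl4 and Ccl5 as lower, and 4 without the 3 mg/kg array, which added Cxcl16 as higher) and 0 to 0 for scopolamine. Normexp with its offset of 50 pulls low signals together by construction, and the cause of the shifts with the deposited matrix was not tested. Over all genes the deposited matrix moved the median ratio to -0.19 for Aβ against streptozotocin and to -0.22 for scopolamine. The limits are 1 array of pooled RNA per model, and levels of 4 to 6 at which the spot SD is largest and the lowest measured signal differs between arrays (2.56 to 4.59). Leaving out an array was not possible for the comparisons of 1 array with 1. No paired analysis was possible because the result comes from no test and each group holds 1 array.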
